A study of Mus musculus with 22 samples.

Results

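Exons whose skipping leaves the reading frame intact and that mouse embryonic stem (ES) cells include only in part were described here across 7 RNA libraries. An exon entered when it was at least 61 and under 250 nucleotides (nt) long, its length was divisible by 3, its deposited inclusion level lay from 0.1 to 0.9 in both untransfected wild-type (WT) and untransfected TKO cells, and at least 20 reads told inclusion from skipping in each of these libraries. Of 10873 skipped-exon events in the deposited lists, 765 met these conditions (7.04%), and they were 12.8% of the 5963 events in the same length window that passed the read minimum in both libraries. The 765 events, here called members, held 706 distinct exons in 614 genes, with 10 events in no annotated gene and 6 in the spans of several genes. The inclusion level is the share of transcripts that carry the exon, a fraction from 0 to 1 estimated by the authors with MISO, a program that assigns reads to the inclusion or the skipping isoform. Since the levels of WT and TKO chose the members, all differences between these 2 libraries below are a description without a test.

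The samples came from 7 groups of 2 replicates, and the authors pooled each group before deposit, so each group was 1 library here and every test compared libraries, not conditions. WT is the R1 mouse ES cell line. TKO is a mouse ES cell line without the DNA methyltransferase genes Dnmt1, Dnmt3a and Dnmt3b, and any other difference between the 2 lines cannot be told apart from that loss. Both were sequenced untransfected, as 50-base single-end reads. WT cells were also transfected with Lipofectamine and siRNA against HP1alpha, HP1beta or HP1gamma at 90 nM (WT HP1a-KD, WT HP1b-KD, WT HP1g-KD) or against all 3 at 60 nM each (WT HP1abg-KD), and TKO cells with the same 3 siRNAs at 80, 80 and 120 nM, in the same order (TKO HP1abg-KD). RNA was taken 48 h after transfection, and these 5 libraries were read as pairs of 101 bases on another sequencer. No feeder cells were used: all cells grew on gelatin, with leukaemia inhibitory factor. The labels name no control siRNA group. Knock-down, transfection and sequencing platform therefore cannot be told apart in any comparison with untransfected cells.

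A cassette exon is joined into the mRNA or left out together with its flanking introns. When its length is a multiple of 3, the downstream codons are read alike in both isoforms, so both can give a stable protein that differs by an internal stretch of amino acids. Skipping an exon of any other length shifts the frame and often brings in an early stop codon, which exposes the mRNA to nonsense-mediated decay. HP1 proteins bind methylated histone H3 in heterochromatin and in gene bodies, and the study asked about their role in how DNA methylation affects splicing.

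The 4 sequences shown let a reader see what such an exon and its splice sites look like. They are the members that lay whole within the promoter windows of a RefSeq table (GRCm38.p6), here windows of other genes that overlap the exon, and were not chosen for a result. Exon bases are in capitals and intron bases in lower case, 5′ to 3′ on the strand of the event. The exons are Mff chr1:82741818-82741976 (plus strand), Ssbp3 chr4:107027217-107027297 (plus strand), G3bp2 chr5:92063337-92063435 (minus strand) and Dennd2a chr6:39527482-39527583 (minus strand).
Mff: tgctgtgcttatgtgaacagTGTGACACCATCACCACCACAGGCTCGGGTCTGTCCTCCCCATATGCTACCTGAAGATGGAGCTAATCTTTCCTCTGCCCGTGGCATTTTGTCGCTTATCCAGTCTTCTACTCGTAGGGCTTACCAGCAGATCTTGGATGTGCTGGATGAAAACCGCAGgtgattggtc
Ssbp3: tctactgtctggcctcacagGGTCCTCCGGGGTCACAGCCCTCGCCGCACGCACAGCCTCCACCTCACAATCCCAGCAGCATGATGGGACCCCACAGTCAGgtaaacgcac
G3bp2: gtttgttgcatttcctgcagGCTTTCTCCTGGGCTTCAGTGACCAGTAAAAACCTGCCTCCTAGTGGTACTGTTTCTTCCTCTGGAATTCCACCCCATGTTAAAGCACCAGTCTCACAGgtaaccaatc
Dennd2a: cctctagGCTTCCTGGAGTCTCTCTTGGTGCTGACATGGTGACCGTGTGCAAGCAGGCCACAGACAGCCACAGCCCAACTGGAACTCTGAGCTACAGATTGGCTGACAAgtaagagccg
Each intron part before the exon ended in ag and each one after it began with gt, the usual splice site dinucleotides. Of the 3 reading frames, the Ssbp3 exon was free of stop codons in 2 and the other 3 exons in 1 each.

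These 4 exons spanned much of the range of levels. G3bp2, a stress granule RNA-binding protein, had a 99-nt exon with a level of 0.16 in WT from 626 inclusion and 940 skipping reads and 0.22 in TKO, against 0.18 to 0.25 in the 5 knock-downs. Ssbp3, a single-stranded DNA-binding transcriptional co-regulator, had an 81-nt exon at 0.82 in WT and 0.73 in TKO, with 0.59 to 0.89 in the knock-downs from 22 to 43 inclusion and at most 5 skipping reads. Dennd2a, a guanine nucleotide exchange factor for Rab GTPases, had a 102-nt exon at 0.18 in WT and 0.49 in TKO, against 0.05 to 0.14 in the knock-downs. The WT value rested on 16 inclusion and 9 skipping reads, so its deposited interval ran from 0.10 to 0.27. The 159-nt exon of Mff, a mitochondrial fission factor, stood in 4 events that differ in the neighbouring exons, and its WT level was 0.15, 0.40, 0.51 or 0.62 depending on the event.

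The libraries held 25941844 (WT) and 25200437 (TKO) event reads, and 4677236 to 9750348 in the knock-downs. Reads on the events of a targeted gene, scaled to all event reads, were 0.4 (Cbx5, HP1alpha), 0.322 (Cbx1, HP1beta) and 0.633 (Cbx3, HP1gamma) times those of knock-downs not aimed at it in the single knock-downs, and 0.35 to 0.71 times in the triple ones. Cbx3 was at 457 RPM (reads scaled to a common number of event reads) in WT but at 49.6 and 52.2 RPM in WT HP1a-KD and WT HP1b-KD, which did not target it, so its check compares low values. Cbx1 was at 1003 RPM in TKO HP1abg-KD, below the 1522 and 1625 RPM of WT HP1a-KD and WT HP1g-KD but above untransfected WT (615 RPM) and TKO (659 RPM). In TKO, Dnmt3a and Dnmt3b events had 0.45 and 0.157 times the reads in WT, and Dnmt1 had no listed event. Of 15 ES cell markers 7 had listed events, at 2527 to 3555 RPM in sum, and Pou5f1, Sox2 and Nanog had none. Of 17 markers of fibroblasts and differentiated cells 4 were listed, at 384 to 548 RPM in sum, with Sox17 at 14.6 RPM in TKO, 17.7 RPM in TKO HP1abg-KD and 0 elsewhere. Pax6 was at 5.32 RPM in WT, 20.9 RPM in TKO, 24.3 RPM in TKO HP1abg-KD and 0 in the other knock-downs. The part of these markers in the members' values was not tested.

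Reads that show skipping were found for some members and not for others, and this divided the list. Of the 765 members, 472 (61.7%, in 400 genes) had at least 5 skipping reads in WT and in TKO. Another 177 (23.1%, in 159 genes) had no skipping read in either library, and 116 (15.2%) lay in between. Every member had inclusion reads in both libraries. In the 472 members with skipping reads, the median deposited level was 0.45 in WT and 0.47 in TKO, and the level computed from the distinguishing reads alone, as reads per possible read position, was 0.393 and 0.450. In the 177 without skipping reads the read-based level is 1 by construction, yet the median deposited level was 0.68 in WT and 0.72 in TKO. At least 1 skipping read in each library was found for 515 members. Counting the read-based level, 441 members lay from 0.1 to 0.9 in both libraries, and 205 lay above 0.9 in both.

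Npm1, which encodes the nucleolar histone chaperone nucleophosmin, is the extreme case. Its 84-nt exon (chr11:33156664-33156747) had a deposited level of 0.53 in WT from 21585 inclusion reads and 0 skipping reads, which allows a share of up to 0.0139%. In TKO it was 0.58 from 26945 inclusion reads and 0 skipping reads, which allows up to 0.0111%. Such limits cover counting error only, since reads carry no molecular identifiers. In the 5 knock-down libraries, the same exon had 1 to 6 inclusion reads and no skipping read, with levels of 0.42 to 0.72. Grb2, an adaptor of receptor tyrosine kinase signalling, was chosen as an example after its values were seen. Its 123-nt exon had a level of 0.37 in WT from 422 inclusion reads and 0 skipping reads, 0.31 in TKO from 514 and 0, and 0.98 to 0.99 in the knock-downs from 205 to 430 and 0. The distinguishing reads thus gave full inclusion in all 7 libraries, while the deposited level did so only in the knock-downs.

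The deposited level went with read density in all 3 classes of members. MISO also assigns reads that fit both isoforms: in all 765 members, the assigned reads equalled the inclusion, skipping and shared reads together. Across the 177 members without skipping reads, the Spearman correlation of the level with the ratio of read density on the exon to that on its flanking exons was 0.833 in WT and 0.808 in TKO. It was 0.886 and 0.892 in the 472 members with skipping reads, and 0.733 and 0.766 in the 116 in between. In the 472 members with skipping reads the correlation of the level with the read-based level was 0.903 in WT and 0.895 in TKO. The density ratio was built from inclusion and shared reads, which MISO also used for the level. A correlation between them therefore follows in part from how both were made. These values describe exons of 1 library that share its depth, and exons are not replicates. What sets the read density was not tested.

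**Figure D1:**
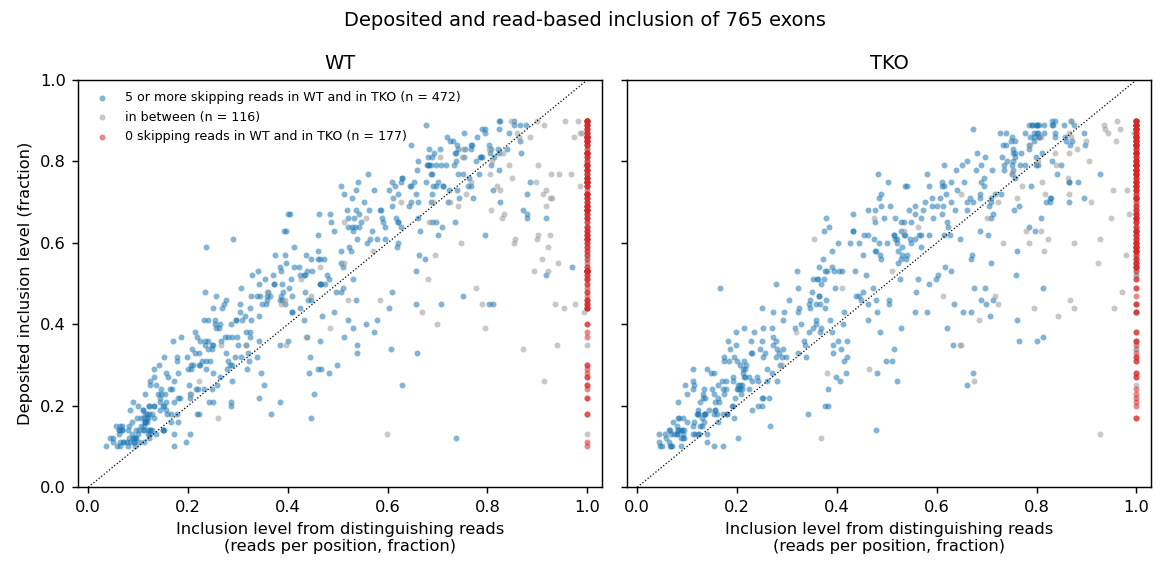
Deposited inclusion level (vertical axis, fraction) against the level from distinguishing reads per position (horizontal axis, fraction) in WT and TKO, 1 point per member, coloured by skipping reads; the dotted line marks equal values. The 177 members without skipping reads stand at a read-based level of 1 over deposited levels from near 0.1 to 0.9, while the 472 with skipping reads lie mostly along the line.

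The knock-down libraries, which the rule did not use, gave further values of the same exons. At least 1 skipping read appeared for 77 of 148 listed members (52.0%) of the class without skipping reads in WT HP1a-KD, and for 65 of 142, 62 of 136, 47 of 121 and 57 of 130 in WT HP1b-KD, WT HP1g-KD, WT HP1abg-KD and TKO HP1abg-KD. Frame-preserving exons above 0.9 in WT and TKO, also without skipping reads there, showed at least 1 in 24.3% to 31.5%. Their median was 74 to 110 distinguishing reads, against 26 to 49.5 for the members. Members with at least 5 skipping reads in WT and TKO showed at least 1 in 91.9% to 93.9%. The class median level in the 5 knock-downs was 0.77 to 0.82 without skipping reads and 0.32 to 0.34 with them. Over the members listed in each it was 0.48, 0.47, 0.45, 0.44 and 0.48, against 0.54 in WT and 0.60 in TKO for all 765. On the same 391 members with at least 20 distinguishing reads in every library it was 0.52, 0.50, 0.49, 0.52 and 0.54, against 0.56 in WT and 0.60 in TKO. All exons of the same length window had medians of 0.78 to 0.80 in the knock-downs, 0.91 in WT and 0.92 in TKO. Of the listed members, 517 of 676, 490 of 650, 456 of 604, 434 of 561 and 463 of 597 stayed within 0.1 to 0.9. In pooled RNA of many cells, a mix of both isoforms in each cell and a mix of cells with 1 isoform each cannot be told apart.

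The share of lengths divisible by 3 is given by class of level as a description, since lengths and levels chose the members. Among exons of that length window, 51.0% of the 1499 of intermediate level had such a length (exact binomial 95% interval 48.5% to 53.6%), against 42.0% of 2788 above 0.9 (40.1% to 43.8%) and 40.0% of 921 under 0.1 (36.8% to 43.2%). Among the 840 intermediate exons with at least 5 skipping reads in both libraries the share was 56.2% (52.8% to 59.6%). It was 47.2% of 375 without skipping reads (42.1% to 52.4%) and 40.8% of 284 in between (35.1% to 46.8%). Among exons above 0.9 with at least 5 skipping reads in both libraries it was 50.0% of 96 (39.6% to 60.4%). Among such exons under 0.1 it was 40.0% of 913 (36.8% to 43.2%). The 755 exons whose WT and TKO levels fell in different classes had a share of 43.6% (40.0% to 47.2%). Exons of 1 gene are not independent, so the intervals are too narrow.

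**Figure D2:**
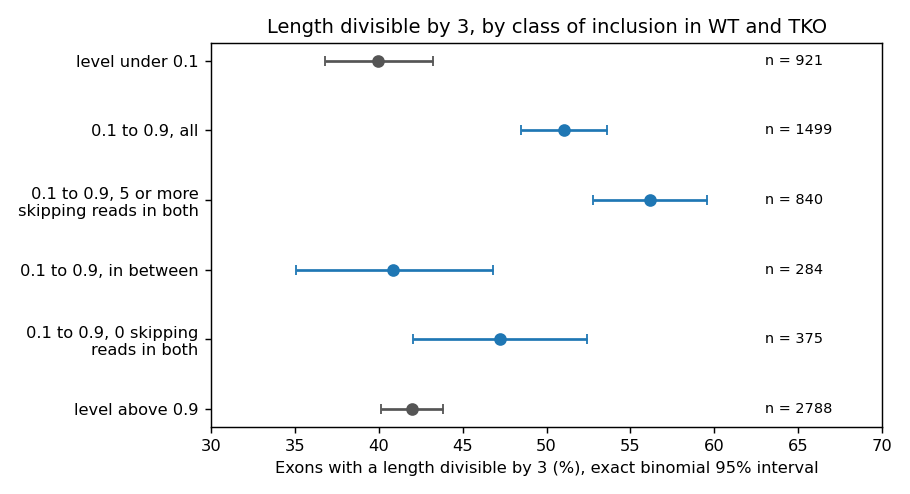
Share of exons with a length divisible by 3 (horizontal axis, percent) by class of deposited level in WT and TKO, with exact binomial 95% intervals; n is the number of exons. Among the classes drawn, the intermediate exons with skipping reads stand highest at 56.2%, and the exons above 0.9 stand at 42.0%. Only the intermediate exons are split by skipping reads, and exons in different classes in WT and TKO are not drawn.

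Exon length was limited by the rule, and the sets compared here came from the same length window. The median length of members was 111 nt, against 116 nt in the 734 frame-shifting exons of intermediate level and 123 nt in the 1170 frame-preserving exons above 0.9. The median upstream intron was 1709 nt and the median downstream intron 2072 nt, against 1968 and 1685 nt in the frame-shifting exons and 1798.5 and 1602 nt in those above 0.9. A total of 36 members (4.71%) lay on the X chromosome, against 27 frame-shifting exons. These figures carry no test.

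The level of 1 exon could differ with the neighbours with which it was scored. A total of 75 member exons stood in several events, with a median spread of 0.16 in the WT level, and in 18 of them it was 0.3 or more. The 117-nt exon of Srsf11, an SR splicing factor, was chosen as an example after its values were seen. It had 105 inclusion reads in WT in both of its events, and a level of 0.84 with 0 skipping reads in 1 event and 0.19 with 184 in the other. Several members could also share a gene: 66 genes held at least 2 distinct member exons, and 10 held at least 3. The 4 exons of Immt, a subunit of the mitochondrial contact site complex, included 3 of 138, 105 and 102 nt that overlap and share an end. Its 96-nt exon was at 0.77 in WT and 0.86 in TKO. The 4 exons of Ktn1, which encodes the membrane protein kinectin, lay apart and are given as an example chosen after their values were seen. The 69-, 87-, 72- and 84-nt exons had WT levels of 0.79, 0.53, 0.47 and 0.42, each from at least 638 distinguishing reads. Their TKO levels were 0.84, 0.48, 0.58 and 0.28, so 2 exons of 1 gene were higher and 2 lower.

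Just inside the lower limit of level stood exons of Morf4l1 (0.10 in WT and TKO) and Hbs1l (0.10 and 0.10), and just outside it Rsrc2 (0.09 and 0.11) and Sptan1 (0.09 and 0.14). At the upper limit, Ubtf and Papola (0.90 and 0.89 each) were inside, and Scml2 (0.85 and 0.91) and Map4k4 (0.86 and 0.91) outside. Etv1 with 20 distinguishing reads in TKO and Fbf1 with 20 in WT just met the read minimum, while Nhsl1 and Pbx4 with 19 in WT did not. The read minimum alone kept out 367 exons.

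Between WT and TKO, member levels differed by a median of 0.02 (TKO minus WT), with a median absolute difference of 0.07. That absolute difference was also 0.07 in the frame-shifting exons, and 0.02 over the whole window. TKO was above WT in 436 members, below it in 291 and equal in 38. Of all 7695 exons with the read minimum in both libraries, TKO was above WT in 3327 and below it in 2269. The difference was 0.1 or more in 272 members, 175 higher and 97 lower in TKO, against 1167 of the 7695 exons. The deposited intervals were apart in 129 members, 88 higher and 41 lower, and this was not counted over all exons. No test of this contrast is given, since the rule used it.

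Many of the largest differences between WT and TKO rested on few reads or on no skipping reads. Higher in TKO were exons of D130020L05Rik (0.11 to 0.58, 0 skipping reads), the tyrosine kinase Src (0.35 to 0.82), Ankrd16 (0.35 to 0.80), the leucine zipper protein Tsc22d1 (0.26 to 0.70), the thymic transcription regulator Aire (0.48 to 0.90, 0 skipping reads) and the teneurin Tenm4 (0.35 to 0.75). The WT library gave the 108-nt Src exon 43 inclusion and 37 skipping reads, the TKO library 62 and 3, and no knock-down listed this event. Lower in TKO were exons of the transcription factor Sp3 (0.84 to 0.17), the RNA-binding protein Tia1 (0.71 to 0.30), the adhesion receptor Adgrl1 (0.78 to 0.38), Pitpnm2 (0.89 to 0.49), the phosphatidate phosphatase Lpin1 (0.89 to 0.53) and an exon on chromosome 5 in no annotated gene (0.85 to 0.51). The 132-nt Sp3 exon had 255 inclusion reads in WT and 49 in TKO with 0 skipping reads in both, while levels under knock-down were 0.29 to 0.43 in WT cells and 0.36 in TKO cells. Tia1, which also promotes exon inclusion at weak splice sites, had 20 inclusion reads and no skipping read in WT. In TKO it had 21 inclusion and 22 skipping reads.

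The same contrast of cell lines could be tested in the 2 triple knock-down libraries, which had no part in the rule and share a platform. Of 394 members with at least 20 distinguishing reads in both, 8 were called (two-sided Fisher's exact test, p adjusted by Benjamini-Hochberg over 4473 exons; a call needed an adjusted p of at most 0.05 and a level difference of at least 0.1), 4 higher and 4 lower in TKO cells. This is 2.03% of the members tested, against 0.469% of all exons (0.246% higher and 0.224% lower); 3 of 344 frame-shifting exons and 0 of 746 frame-preserving exons above 0.9 were called. The difference between these shares was not tested. All 8 were among the 274 tested members with at least 5 skipping reads in WT and TKO. An exon without skipping reads in both compared libraries cannot be called by this test. Where the calls fell by class therefore follows in part from the test. With the null odds ratio set at the median of all exons, 5 were called, 1 higher and 4 lower, and the calls of Mtmr3, Golm2 and the Cdk2 or Pmel exon were lost. An unadjusted p of at most 0.05 was reached by 52 of the 394 members, against 237 of all 4473 exons. TKO cells received more siRNA than WT cells, which cannot be told apart from the cell line.

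Hnrnpa2b1, an hnRNP protein that binds pre-mRNA and regulates splicing, carried the call with most reads. Its 120-nt exon (chr6:51464428-51464547) had a level of 0.70 in WT, 0.62 in TKO, 0.57 in each of the 3 single knock-downs, 0.51 in WT HP1abg-KD and 0.36 in TKO HP1abg-KD. The 2 triple knock-downs differed by 0.15, from 2119 inclusion and 306 skipping reads in WT cells and 3676 and 1055 in TKO cells (Fisher's exact test, adjusted p = 5.85e-21). The deposited intervals, 0.49 to 0.55 and 0.34 to 0.37, did not overlap. Ehmt2 encodes the histone H3 methyltransferase G9a. Its 102-nt exon (chr17:34905610-34905711) was at 0.42 in WT and 0.23 in TKO, at 0.27 to 0.29 in the single knock-downs, at 0.30 in WT HP1abg-KD and at 0.20 in TKO HP1abg-KD (Fisher's exact test, adjusted p = 0.00139). In both cell-line contrasts TKO was the lower library. For Hnrnpa2b1, reads and level disagreed against untransfected cells: the level was below WT in WT HP1a-KD, while inclusion reads took a larger share, 4795 beside 554 skipping reads against 4508 beside 672 in WT.

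Atp13a3, a transport ATPase of endosomal membranes, was also lower in TKO cells. Its 90-nt exon was at 0.44 in WT and 0.31 in TKO, at 0.30 to 0.42 in the single knock-downs, at 0.44 in WT HP1abg-KD and at 0.19 in TKO HP1abg-KD (Fisher's exact test, adjusted p = 0.0414). The fourth lower exon, the 165-nt exon of the RNA-binding protein Rbm27, was at 0.74 in both WT and TKO and at 0.69 to 0.76 in the single knock-downs. It stood at 0.94 in WT HP1abg-KD from 81 inclusion and 0 skipping reads, and at 0.64 in TKO HP1abg-KD from 84 and 13 (Fisher's exact test, adjusted p = 0.0394). Here the WT triple knock-down was the library that stood apart from the other 6.

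The 4 exons higher in TKO cells were also higher in untransfected TKO than in WT. Os9, a lectin of endoplasmic-reticulum-associated degradation, had a 165-nt exon at 0.34 in WT and 0.54 in TKO. It was at 0.08 to 0.11 in the single knock-downs, 0.05 in WT HP1abg-KD and 0.23 in TKO HP1abg-KD (Fisher's exact test, adjusted p = 0.00618). The 111-nt exon of Mtmr3, a phosphoinositide phosphatase, was at 0.41 in WT, 0.62 in TKO, 0.34 to 0.43 in the single knock-downs, 0.28 in WT HP1abg-KD and 0.56 in TKO HP1abg-KD (Fisher's exact test, adjusted p = 0.0435). The 168-nt exon of Golm2, a Golgi membrane protein, was at 0.62, 0.74, 0.50 in each single knock-down, 0.44 and 0.64 in the same order (Fisher's exact test, adjusted p = 0.038). A 144-nt exon in the overlapping spans of the cell cycle kinase gene Cdk2 and the melanosome gene Pmel was at 0.50, 0.61, 0.19 to 0.26, 0.24 and 0.41 (Fisher's exact test, adjusted p = 0.0296). Of the 8 called exons, 7 differed in the same direction between untransfected TKO and WT, the exception being Rbm27 at equal levels.

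**Figure D3:**
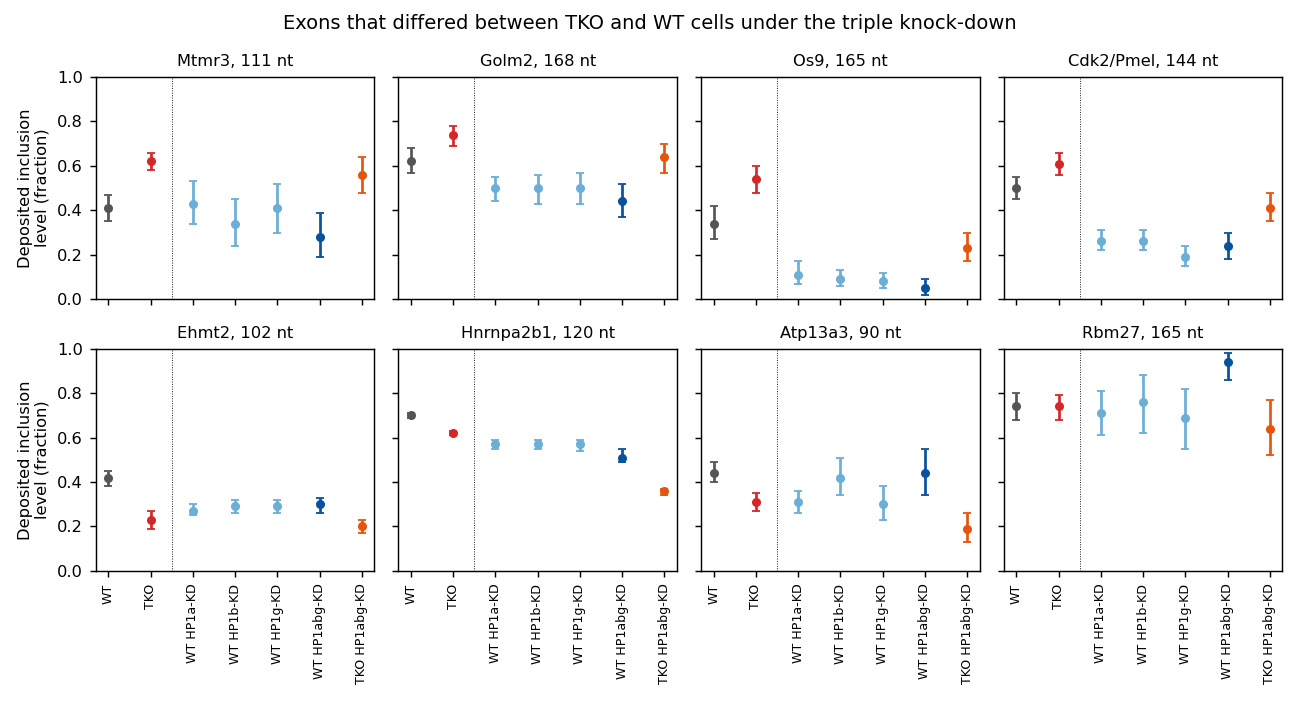
Deposited inclusion level (vertical axis, fraction) with the deposited interval for the 8 exons called between TKO and WT cells under the triple knock-down, in 7 pooled libraries; the dotted line separates the 2 sequencing platforms. In the top row TKO HP1abg-KD is above WT HP1abg-KD, in the bottom row below it, and only for Rbm27 are WT and TKO equal.

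The differences of the 2 cell-line contrasts are set side by side as a description, since the untransfected libraries chose the members and defined their read classes. They share no library. Over all 394 members Pearson r was 0.169 and Spearman rho 0.161, across exons, which are not replicates. Among the 274 with skipping reads r was 0.264, among the 68 without them 0.037 and among the 52 in between -0.01. Of the 128 members that differed by 0.1 or more between TKO and WT, 76 had the same sign under the triple knock-down, 46 the opposite sign and 6 no difference. With skipping reads it was 54 of 82, without them 13 of 26 and in between 9 of 20. The differences themselves were small under the triple knock-down, with a median of 0.01 over members and of 0.00 over all exons, and a median absolute difference of 0.05 over members and 0.02 over all exons.

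**Figure D4:**
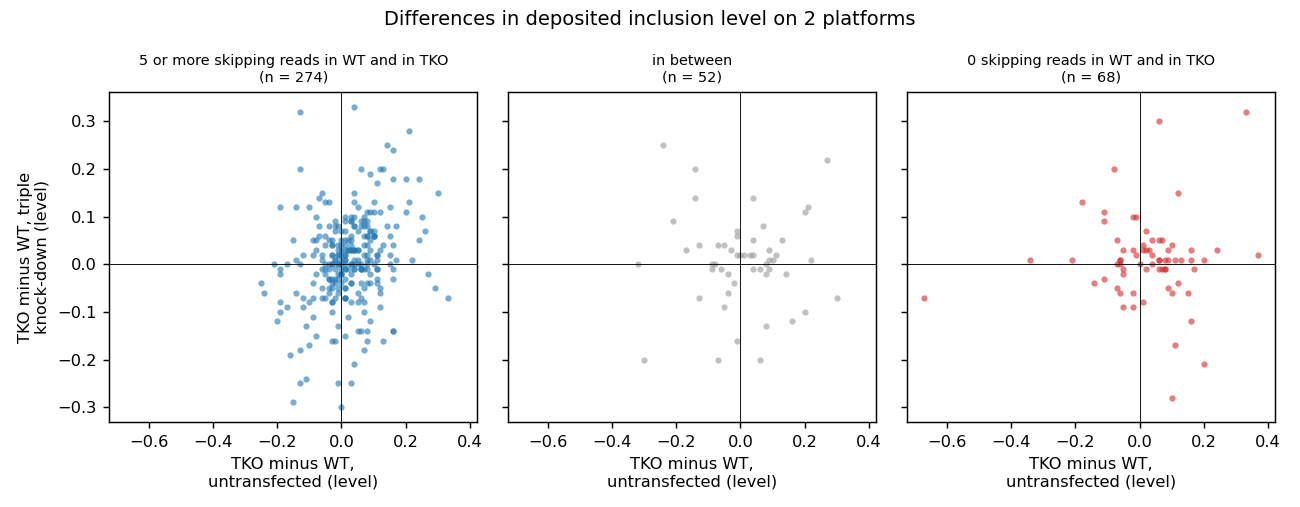
Difference in deposited inclusion level between TKO and WT cells under the triple knock-down (vertical axis) against that in untransfected cells (horizontal axis), 1 point per tested member, in 3 panels by skipping reads. Most points lie near 0 on both axes, and r is 0.264 over the 274 members with skipping reads and 0.037 over the 68 without them.

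Between knock-downs of WT cells no member was called. In WT HP1abg-KD against the 3 single knock-downs together, 0 of 421 members were called by Fisher's exact test, against 0.043% of 4655 exons, and 16 members had an unadjusted p of at most 0.05. For each single knock-down against the other 2, the counts were 0 of 518 for HP1alpha (against 0% of 5726 exons), 0 of 500 for HP1beta (against 0.0178% of 5621) and 0 of 477 for HP1gamma (against 0% of 5333), with 21, 31 and 28 members at an unadjusted p of at most 0.05. Over all exons tested, such an unadjusted p was reached by 125 for the triple knock-down and by 162, 169 and 159 for the single ones, in the same order. The median absolute difference of members was 0.0266 to 0.0323 in these 4 comparisons. Their depth bounds what could be seen, with 43 to 70 distinguishing reads per member at the median in the 4 libraries.

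Set beside untransfected cells, the knock-down libraries had lower levels at many members. In WT HP1a-KD against WT, 148 of 556 members were called by Fisher's exact test, 32 higher and 116 lower, against 11.8% of all exons (1.64% higher and 10.2% lower). In WT HP1b-KD they were 145 of 526 (34 higher and 111 lower), against 11.8% of all exons (1.92% higher and 9.91% lower). In WT HP1g-KD they were 126 of 477 (25 and 101), against 11.4% (1.6% and 9.84%). In WT HP1abg-KD they were 106 of 424 (24 and 82), against 11.2% (1.83% and 9.37%). In TKO HP1abg-KD against TKO they were 127 of 471 (22 and 105), against 12.3% (1.31% and 10.9%). The 4 comparisons of WT cells share the WT library, and the WT and TKO levels chose the members, so these counts are a description. Of the frame-shifting exons of intermediate level, 25.8% to 31.3% were called, against 25.0% to 27.6% of members, and the difference was not tested. Calls came to 28.6% to 33.9% of the members with skipping reads and to 5.83% to 9.68% of those without. The latter could be called only where skipping reads appeared in the knock-down library, so the test itself limits their share. The median difference in deposited level was -0.07 to -0.10 with skipping reads and 0.12 to 0.14 without them. The 2 classes thus lay on opposite sides of untransfected cells by deposited level only. By reads, the class without skipping reads was at full inclusion in WT and TKO and could only stay there or fall. Fisher's exact test took the reads without a correction for read length. The balance of possible read positions for inclusion and for skipping differs between reads of 50 and of 101 bases. Its part in these counts was not tested. The odds of an inclusion read at the median exon of the whole table were 0.551 to 0.673 times those in untransfected cells, and with the null set at that median the 5 comparisons gave 155 higher and 341 lower calls in place of 137 and 515. In 6 to 13 of the called members per comparison, the share of inclusion reads moved against the deposited level.

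Over the 4 knock-downs of WT cells, 553 members were listed in all 5 libraries, of which 142 were above WT in all 4, 266 below it in all 4 and 145 mixed. Of 415 members tested in all 4, 72 were called in all 4 (16 above WT and 56 below) and 247 in none. Of all 4511 exons tested in all 4, 7.16% were called in all 4 in 1 direction, 1.04% above WT and 6.12% below. A total of 59 members differed from WT by 0.3 or more in the same direction in all 4, and 26 of these were called in none, 16 of them without skipping reads in WT and TKO. The exons furthest below WT were led by the 126-nt exon of the ubiquitin-conjugating enzyme variant Ube2v1, at 0.82 in WT, 0.88 in TKO and 0.03 to 0.05 in all 5 knock-downs, where inclusion reads went from 1032 in WT to 14 to 32. The 69-nt exon of Srp9, a subunit of the signal recognition particle, was at 0.73 in WT and 0.71 in TKO and at 0.00 to 0.01 in the knock-downs, with 0 inclusion and 48 to 115 skipping reads. The 180-nt exon of Ctnnd1, the adherens junction protein p120 catenin, was at 0.67 and 0.69 in WT and TKO and at 0.04 to 0.10 in the knock-downs. Another exon of Ctnnd1, of 63 nt, was at 0.64 and 0.68 in the untransfected libraries and at 0.70 to 0.85 in the knock-downs. It was called higher in WT HP1b-KD and in both triple knock-downs, so 2 exons of 1 gene moved in opposite directions. Also below WT were exons of Kansl2, a subunit of the NSL acetyltransferase complex (0.74 in WT, 0.02 to 0.04 in WT knock-downs), the dioxygenase Alkbh1 (0.78, 0.22 to 0.30) and one in the spans of Fbxl2 and Ubp1 (0.85, 0.25 to 0.27). Tmtc3, a protein O-mannosyltransferase (0.68, 0.04 to 0.14), had enough reads for a test only in WT HP1a-KD, and the U-box ubiquitin ligase Ubox5 (0.74, 0.13 to 0.22) only in WT HP1a-KD and WT HP1b-KD. Both were called there.

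The exons above WT were led by Morf4l1, a chromodomain subunit of histone acetyltransferase and deacetylase complexes. Its 117-nt exon was at 0.10 in WT and TKO, from 356 inclusion and 508 skipping reads in WT, and at 0.89 to 0.95 in the 5 knock-downs, from 81 to 131 inclusion and 0 skipping reads. The 63-nt exon of Eif4a3, the helicase of the exon junction complex, was at 0.49 in WT and 0.71 in TKO, against 0.96 to 0.98 in the knock-downs. By reads only WT stood apart, with 574 inclusion and 72 skipping reads, against 632 and 0 in TKO. The knock-downs had 0 or 1 skipping reads, and TKO HP1abg-KD against TKO was not called. The vesicle tether Uso1 (0.57 in WT, 0.97 to 0.98 in WT knock-downs) and an exon shared by Chtf8 and Derpc (0.51, 0.83 to 0.90) followed. Untransfected TKO had the Uso1 exon at 0.68, from 486 inclusion and 0 skipping reads. It had the Chtf8 and Derpc exon at 0.84, from 488 and 15, within the range of the WT knock-downs. Neither exon was called in TKO HP1abg-KD against TKO. Tdh, the threonine dehydrogenase of mouse ES cells, and Brd8, a bromodomain protein of an acetyltransferase complex, were above WT by deposited level but not by reads. Tdh was at 0.44 in WT and 0.85 to 0.90 in the WT knock-downs, although WT had 764 inclusion and 0 skipping reads and the WT knock-downs 12 to 33 skipping reads. Brd8 was at 0.46 in WT and 0.84 to 0.91 in the WT knock-downs, with 0 skipping reads in WT and 12 to 23 in the WT knock-downs. The ubiquitin ligase Rbbp6 was likewise above WT by level only, at 0.12 in WT and 0.38 to 0.45 in the WT knock-downs. Its reads were 43 for inclusion and 5 for skipping in WT, and 122 and 79 in WT HP1a-KD, a smaller share of inclusion.

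**Figure D5:**
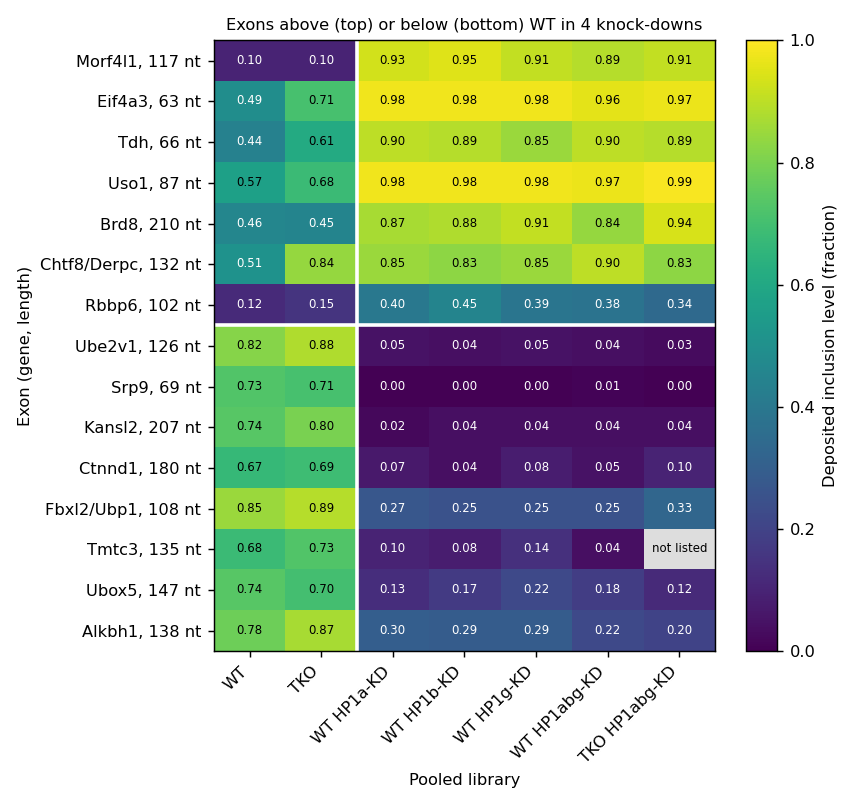
Deposited inclusion level (colour and printed value, fraction) of 7 exons far above WT and the 8 furthest below it in 4 knock-downs of WT cells, in 7 pooled libraries. WT and TKO stand on the left of the white line and the knock-down libraries, from another platform, on its right; the 5 knock-downs resemble each other in each row.

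Members were grouped by role from the gene symbol alone. Over all exons, 1.31% to 1.92% were called higher and 9.37% to 10.9% lower in the 5 comparisons with untransfected cells, and these shares stand beside every list below. Members as a whole were called more often there, in 25.0% to 27.6% in either direction. In WT HP1a-KD, 32 were called higher and 116 lower of 556 members. A list above the share of all exons can therefore still lie near that of members. Of the 29 members in genes of splicing factors and RNA helicases, 22 had at least 5 skipping reads in WT and TKO. Between TKO and WT under the triple knock-down, 0.469% of all exons and 2.03% of tested members were called, and these shares too stand beside every list. In the splicing list, 2 of 19 tested were called, both lower (Hnrnpa2b1 and Rbm27), with a list median of -0.01 against 0.00 over all exons. Against untransfected cells, 12 of 22 were called lower in WT HP1a-KD, 13 of 21 in WT HP1b-KD, 13 of 20 in WT HP1g-KD, 10 of 20 in WT HP1abg-KD and 12 of 20 in TKO HP1abg-KD. At most 2 were called higher. The list median was -0.13 to -0.15 in these 5 comparisons, against -0.03 to -0.04 over all exons and -0.04 to -0.05 over all members.

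Several splicing regulators, chosen after their values were seen, were lower in all 5 comparisons. Hnrnpdl, an hnRNP D-like protein, had a 105-nt exon at 0.49 in WT and TKO and at 0.23 to 0.27 in the knock-downs. The 78-nt exon of the polypyrimidine tract binding protein Ptbp1 was at 0.65 in WT and 0.56 in TKO, against 0.41 to 0.47 in the knock-downs, although its TKO library had 0 skipping reads beside 324 in WT. The 147-nt exon of Bclaf1, a nuclear RNA-processing protein, was at 0.61 and 0.58, and at 0.36 to 0.41 in the knock-downs. For a pair of exons with very many reads, level and reads could part. The 147-nt exon of Hnrnpd, an AU-rich element binding protein, was called lower at 0.58 to 0.61 in the WT knock-downs, against 0.77 in WT. Its reads went from 3448 for inclusion and 677 for skipping to 2007 and 210 in WT HP1a-KD, a larger share of inclusion. A 141-nt exon in the spans of Hnrnpab and Phykpl was at 0.67 in WT and 0.63 in TKO, against 0.54 to 0.56 in the knock-downs, and its reads moved the same way, from 6225 and 2360 in WT to 5744 and 3353 in WT HP1a-KD.

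Of 49 members in chromatin and DNA methylation genes, 29 had at least 5 skipping reads in both libraries. Under the triple knock-down only Ehmt2 of 28 tested was called between cell lines. Against untransfected cells, 6 were called higher and 9 lower of 39 in WT HP1a-KD, 5 and 6 of 36 in WT HP1b-KD, 4 and 4 of 32 in WT HP1g-KD, 5 and 5 of 31 in WT HP1abg-KD and 3 and 4 of 32 in TKO HP1abg-KD. The list median was -0.05 to -0.065 in the 4 comparisons of WT cells and 0.045 in TKO cells, against -0.03 to -0.04 over all exons. Bptf, the largest subunit of the NURF chromatin remodeller, had a 174-nt exon at 0.76 in WT and 0.79 in TKO, and at 0.41 to 0.46 in the single knock-downs, 0.32 in WT HP1abg-KD and 0.30 in TKO HP1abg-KD. It was called lower in all 5 comparisons with untransfected cells. Of 63 members in transcription factor genes, none of 32 tested was called between cell lines under the triple knock-down. Against untransfected cells, 1 was called higher and 6 lower of 44, 2 and 11 of 42, 2 and 6 of 38, 1 and 1 of 34 and 0 and 2 of 34, in the same order. Zfp207, a zinc finger protein with a role at the mitotic spindle, had a 93-nt exon at 0.14 in WT and 0.18 in TKO, against 0.08 to 0.11 in the knock-downs, under the difference needed for a call. The zinc finger protein Zfp638 had a 102-nt exon at 0.45, 0.52 and 0.35 to 0.43, with a call in WT HP1b-KD only. For Gabpa, an ETS family factor, the 195-nt exon was at 0.81 and 0.75 from 810 and 837 inclusion and 0 skipping reads, and at 0.91 to 0.97 in the knock-downs, with no call.

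Genes of the translation and RNA metabolism list held 30 members, and 3 were called higher and 6 lower of 27 in each single knock-down, 3 and 2 of 26 in WT HP1abg-KD and 2 and 6 of 26 in TKO HP1abg-KD. In either direction, 11.2% to 12.3% of all exons and 25.0% to 27.6% of all members were called. Kars encodes the cytosolic and the mitochondrial lysyl-tRNA synthetase. Its 180-nt exon was at 0.36 in WT and 0.31 in TKO, against 0.07 to 0.09 in the knock-downs, with 726 skipping reads in WT and 1810 in WT HP1a-KD. The 72-nt exon of Eef1d, a subunit of the elongation factor exchange complex, was at 0.70 in WT and 0.75 in TKO, against 0.92 to 0.94 in the knock-downs, and was called higher in all 5. For Eif5, the translation initiation factor, the 162-nt exon was at 0.54 in WT from 2436 inclusion and 18 skipping reads, at 0.37 in TKO from 1500 and 80, and at 0.92 to 0.94 in the knock-downs. It was called only in TKO HP1abg-KD against TKO. The 207-nt exon of Ybx3, a cold-shock domain protein in no list, was at 0.70 in WT and 0.62 in TKO, against 0.36 to 0.41 in the knock-downs, and was called lower in all 5.

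The lists of signalling, cytoskeleton, trafficking, ubiquitin, cell cycle and metabolic genes held 45, 61, 32, 34, 21 and 29 members. Under the triple knock-down, 1 of 16 tested in signalling genes and 1 of 14 in metabolic and transport genes were called between cell lines, the exons of Cdk2 or Pmel and of Atp13a3, and none in the others. Against untransfected cells, calls in signalling genes were 0 higher and 8 lower of 29 in WT HP1a-KD, 1 and 3 of 28 in WT HP1b-KD, 1 and 5 of 21 in WT HP1g-KD, 0 and 3 of 18 in WT HP1abg-KD and 1 and 8 of 24 in TKO HP1abg-KD. In that order, cytoskeleton genes had 5 and 9 of 49, 2 and 8 of 46, 2 and 8 of 41, 2 and 8 of 38, and 7 and 4 of 38, so the balance in TKO cells was the other way. Trafficking genes had 1 higher in each and 3 to 5 lower, of 13 to 22 tested. Ubiquitin genes had 0 to 4 higher and 3 to 5 lower of 22 to 28. Cell cycle and repair genes had 0 higher and 5 to 7 lower of 15 to 19 in WT cells, and 1 and 3 of 17 in TKO cells. Metabolic genes had 1 and 1 of 24, 4 and 0 of 21, 2 and 2 of 20, 1 and 1 of 15, and 2 and 0 of 22. Tnks2, a poly-ADP-ribose polymerase, had a 189-nt exon at 0.79 in WT and 0.87 in TKO, against 0.58 to 0.65 in the knock-downs. Csnk1d, a casein kinase, had a 63-nt exon at 0.48 in WT and 0.60 in TKO, against 0.45 to 0.54 in the knock-downs, with a call only in TKO HP1abg-KD against TKO. The 183-nt exon of cyclin B1 (Ccnb1) was at 0.71 and 0.67, and at 0.40 to 0.50 in the knock-downs, with 70 skipping reads in WT and 0 in TKO. Map4k4, a kinase that the symbol rule placed with the cytoskeleton genes, had a 192-nt exon at 0.37 in WT and 0.44 in TKO, against 0.44 to 0.57 in the knock-downs. The 96-nt exon of the actin crosslinker filamin A (Flna) was at 0.43 and 0.52, and at 0.98 to 0.99 in the knock-downs, with 0 to 2 skipping reads in every library and no call.

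Other frequently read members of these lists had few or no calls. Rif1, a regulator of replication timing, had a 78-nt exon at 0.63 in WT and 0.64 in TKO, against 0.63 to 0.73 in the knock-downs. Poldip3, a protein of mRNA export and translation, was at 0.77, 0.83 and 0.73 to 0.78, and the proteasome shuttle Ubqln1 at 0.66, 0.76 and 0.62 to 0.68. Picalm, a clathrin adaptor, had a 150-nt exon at 0.56 in WT and 0.66 in TKO, against 0.30 to 0.51 in the knock-downs without a call. Golga4, a golgin, was at 0.88, 0.89 and 0.54 to 0.73 in the 3 knock-downs that listed it, with a call in WT HP1b-KD. Members without or nearly without skipping reads were Triml2 (0.88 in WT, 0.93 to 0.99 in the knock-downs), Cops3 (0.79, 0.95 to 0.98) and Alg13 (0.54, 0.88 to 0.95).

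The range of level over the libraries was small in absolute terms for a few members. Over the 391 members with at least 20 distinguishing reads in all 7 libraries, the range of level had a median of 0.23 and went from 0.04 to 0.85, against a median of 0.1 over 3405 exons of the length window. The narrowest ranges belonged to Atg13, a subunit of the autophagy initiation complex (0.86 to 0.90), Csnk1a1, a casein kinase (0.13 to 0.18), the polyadenylation factor Fip1l1 (0.12 to 0.18), S100pbp (0.86 to 0.92), the protease inhibitor Spint2 (0.06 to 0.13) and the splicing repressor Hnrnpa1 (0.15 to 0.22). The Spint2 range was small in absolute terms only, with 0.12 in WT and 0.13 in TKO against 0.06 to 0.07 in the knock-downs. The 84-nt Csnk1a1 exon had more skipping than inclusion reads in every library, from 1045 against 334 in WT to 93 against 50 in TKO HP1abg-KD. A steady level did not always go with steady reads. For the 159-nt Hnrnpa1 exon, WT had 941 inclusion and 356 skipping reads at a level of 0.21, while WT HP1a-KD had 227 and 0 at 0.18.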

How the data were processed

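Per the submitters' processing notes, reads were handled with TopHat2 and Bowtie2 on the mm10 build; no version is stated there. Per the labels, 1 summary stands for the 2 replicates of a group, so no spread between replicates could be computed and p-values reflect read counts only. The tables are summaries of MISO, per the file headers: the deposited level is a fraction, the posterior mean of inclusion, with an interval of unstated level, and read counts by class (inclusion alone, skipping alone, both, neither) were deposited beside it. An exon missing from a library's list was not analysed there. The bisulfite and MNase samples were not used here.

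Events were joined by coordinates and named from the GRCm38.p6 gene table by span, on either strand. Distinguishing reads are those for inclusion alone or skipping alone. Libraries were compared in pairs by a two-sided Fisher's exact test on them, with Benjamini-Hochberg adjustment over all exons with at least 20 in each, and calls needed an adjusted p of at most 0.05 and a level difference of at least 0.1. For pooled single knock-downs, reads were summed and levels weighted by reads. The read-based level divides inclusion and skipping reads by their possible start positions, with an overhang of 1 base. The code of the test was run on simulated reads with equal inclusion shares in both libraries apart from added shifts. There the difference was taken in the read share. That run covered neither the deposited level used for calls nor a shift of all exons between platforms. Python 3.11.15, scipy 1.17.1, pandas 2.3.3 and numpy 2.4.6 were used.

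The members, role lists and named genes were chosen with earlier results of these data known. Named were members called between the triple knock-downs or between knock-downs, the 8 furthest above and below WT in all 4 WT knock-downs with a call, the 6 largest TKO minus WT differences per direction, the 6 with most reads, the 6 steadiest, up to 3 per role list by reads, and the 2 nearest each limit; others are said to be chosen after their values were seen. Of the named exons, 1 is not reported here. Alternatives varied the read minimum (10 or 40), the difference (0.05 or 0.2), the null odds ratio, the level and the rule for a call.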

Additional observations from a re-analysis of the deposited data

How the results depend on the processing

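No paired analysis was possible because the replicates of each group were pooled before deposit, and for the same reason no replicate could be left out. For the cell-line contrast under the triple knock-down, 8 calls became 4 with a level difference of at least 0.2, 5 with the null odds ratio at the median of all exons and 14 by deposited intervals apart. At the other 4 settings there were 7 to 9. All 8 main calls are among the members with at least 5 skipping reads in WT and TKO, in part because the test needs skipping reads. For single knock-downs against the other 2, 0 calls became 1 with a difference of at least 0.05, 1 by read share and 2 by intervals apart. For the triple against single knock-downs the count was 0 at every setting. Summed over the 5 comparisons with untransfected cells, 652 calls became 394 with a difference of at least 0.2, and 496 to 916 at the other 6 settings, with more lower than higher at each. The list itself shrank from 765 to 478 members at levels of 0.2 to 0.8. The median level of members, taken as the share of inclusion among distinguishing reads, was 0.85 in WT, 0.874 in TKO, 0.798 in WT HP1a-KD, 0.8 in WT HP1b-KD, 0.784 in WT HP1g-KD, 0.8 in WT HP1abg-KD and 0.821 in TKO HP1abg-KD; among members read in all 7 libraries it was 0.52 in WT HP1abg-KD and 0.54 in TKO HP1abg-KD. The cause of these shifts was not tested. The share of lengths divisible by 3 was 50.9% to 53.2%, and the intron medians were 1641 to 1719.5 nt upstream and 2001 to 2121 nt downstream. Depth limits the contrasts between knock-downs: differences supported by fewer than 20 distinguishing reads in a library were not tested. Chosen after seeing the data, a threshold of 1 or 10 skipping reads in place of 5 gave 515 or 422 members with both kinds of reads, and an overhang of 8 bases gave 417 in place of 441 members with a read-based level from 0.1 to 0.9. Without the members that have fewer than 5 skipping reads in WT or TKO, also chosen after seeing the data, the sum of calls against untransfected cells was 521.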
